A study of Homo sapiens with 24 samples.

Results

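KDM5C was depleted with a short hairpin RNA in HK-2 cells, a line of human proximal tubule epithelium that is not of tumor origin, and the transcriptome was compared with that of HK-2 cells carrying a control hairpin. The comparison holds 6 of the 24 RNA-seq libraries of the series, taken by cell line and hairpin from the library labels: 3 shNC libraries and 3 shKDM5C libraries. The other libraries come from ACHN renal cancer cells and from YY1 or double knockdown lines, and only the ACHN shNC and shKDM5C libraries, the HK-2 double knockdown (Dsh, KDM5C and YY1 together) and, for 2 transcripts, the HK-2 shYY1 libraries are used below for comparison. The study asked how KDM5C and the transcription factor YY1 act together on gene expression, and HK-2 served as the kidney line without cancer.

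Both HK-2 groups were stable lines, made with lentiviral pLKO.1 vectors, selected with puromycin and grown in DMEM with serum. shNC carries a control hairpin and shKDM5C a hairpin against KDM5C. The Dsh cells were made by adding a KDM5C hairpin on a GFP vector to YY1-depleted cells. Of 2 KDM5C hairpins that the study designed, the sources used here do not say which was sequenced, so an effect of KDM5C loss and an effect of that hairpin cannot be told apart. The labels number the libraries as repeats and do not say that they came from separate infections or cultures, so the p-values measure the spread between these libraries, which may be technical.

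KDM5C is an X-linked demethylase that removes methyl groups from lysine 4 of histone H3, a mark found at active promoters and enhancers. It can repress or sustain transcription depending on the gene and its partners, and it is among the chromatin genes recurrently mutated in clear cell renal carcinoma. HK-2 cells keep part of the program of the proximal tubule, the segment that reabsorbs glucose, phosphate, amino acids and protein from the filtrate.

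The 6 libraries held 15926561 to 18755684 counted read pairs. The replicate 1 library of shKDM5C stood apart from the other 5. Genes of the mitochondrial genome took 11.8% of its counts, against 5.13% to 5.52% in the other 5 libraries, and 22966 genes had a count, against 24694 to 25190. Its values ran with GC content: relative to the mean of shNC, its median log2 difference was 0.56 in the quartile of genes with the lowest exonic GC content and -0.85 in the highest, a span of -1.40, whereas the span of the other 5 libraries lay between -0.12 and 0.07. The mean absolute log2 difference per gene was 0.612 and 0.605 between replicate 1 and replicates 2 and 3, and 0.193 between replicates 2 and 3. Counts of genes are therefore given with all 6 libraries and without shKDM5C replicate 1, and the value of a single gene is from all 6 libraries unless stated. Of 28 proximal tubule markers, 15 had enough counts to test. The transcription factor PAX8 had a mean of 256 CPM in shNC (counts scaled to a common library size), while the receptors LRP2 and CUBN, the water channel AQP1 and the phosphate carrier SLC34A1 lay between 0.0182 and 0.446 CPM, and the transporters SLC5A12, SLC22A6 and SLC22A8 had no count in any of the 6 libraries.

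**Figure D1:**
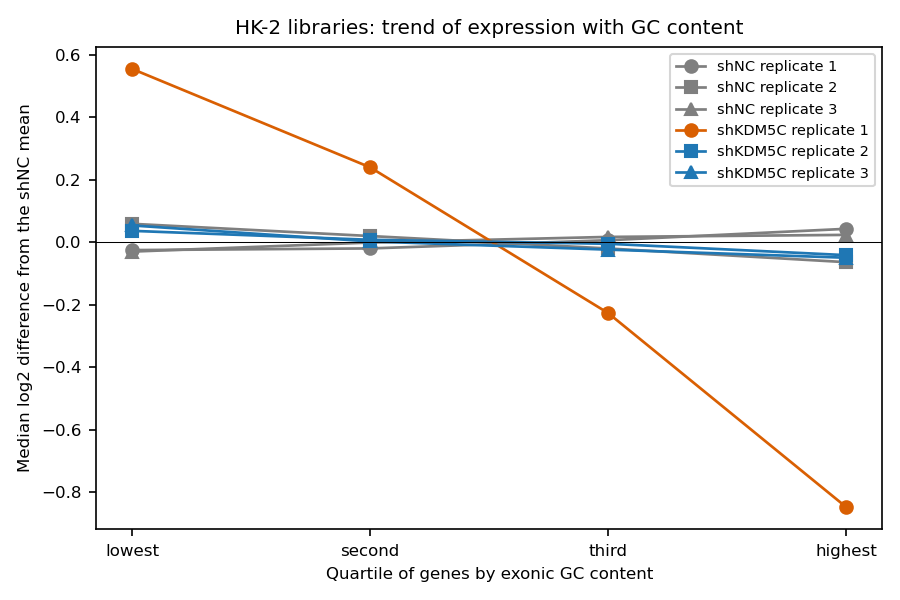
Median log2 difference of each HK-2 library from the mean of the 3 shNC libraries (vertical axis) in 4 quartiles of genes ordered by exonic GC content (horizontal axis), with 1 line per library. The shKDM5C replicate 1 line falls from 0.56 to -0.85, and the other 5 lines stay near 0.

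KDM5C itself was lower in every knockdown library. It had 192, 191 and 196 CPM in shNC and 37.7, 68.0 and 67.2 CPM in shKDM5C, with no overlap, and replicate 1 was the lowest. Its log2 fold change (shKDM5C over shNC, negative where lower in the knockdown) was -1.74 ± 0.23 (SE, 3 against 3, adjusted p = 0.0184, edgeR quasi-likelihood test) and -1.51 ± 0.05 without replicate 1 (adjusted p = 1.26e-16). The 6-library call depended on each of the other 5 libraries: the adjusted p was above 0.05 when any 1 of them was left out, with log2 fold changes between -1.88 and -1.73. The gene lies at chrX:53191321-53225422 (GRCh38). Its paralogs KDM5A and KDM5B, which remove the same methyl mark, did not pass the test. KDM5A had 94.4, 89.0 and 88.4 CPM in shNC and 160.2, 87.7 and 84.4 CPM in shKDM5C, and KDM5B had 120.1 to 128 CPM in shNC and 221, 122 and 118 CPM in shKDM5C, so in both genes replicate 1 alone was high. The sign of both values turned from 0.29 and 0.30 with all 6 libraries to -0.07 and -0.06 without replicate 1. YY1 had 202 to 215 CPM in shNC and 215 to 277 CPM in shKDM5C and did not pass (log2 fold change 0.19, adjusted p = 0.484).

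With all 6 libraries, 43 genes were called lower and 38 higher of 16161 tested, 0.266% and 0.235%, where a call needs both an adjusted p below 0.05 and a log2 fold change of 1.5 or more in size. Without shKDM5C replicate 1, 138 genes were called lower and 92 higher of 16642 tested, 0.829% and 0.553%. At any fold, 106 genes fell and 108 rose with all 6 libraries (0.656% and 0.668%), and 1808 fell and 1910 rose without replicate 1 (10.9% and 11.5%). The 2 analyses shared 37 genes called lower and 34 called higher. All 81 genes called with 6 libraries had the same sign and an adjusted p under 0.05 without replicate 1, and 10 of them fell short of the fold threshold there. The 2 analyses share every library but shKDM5C replicate 1, so their agreement is partly set by that overlap. Of the 230 genes called without replicate 1, replicate 1 lay beyond every shNC library in the same direction in 200. That library lay below every shNC library for 44.9% and above every one for 41.8% of all genes tested. The 6-library calls needed all 3 shNC libraries: without shNC replicate 1, 2 or 3, the calls dropped to 0 lower and 0 higher, 0 and 1, and 0 and 0. They were 16 lower and 18 higher without shKDM5C replicate 2, and 8 and 15 without replicate 3. After a correction of every library for its GC and length trends, all 6 libraries gave 70 lower and 63 higher calls, and 66 of the 71 genes called both ways were among them.

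**Figure D2:**
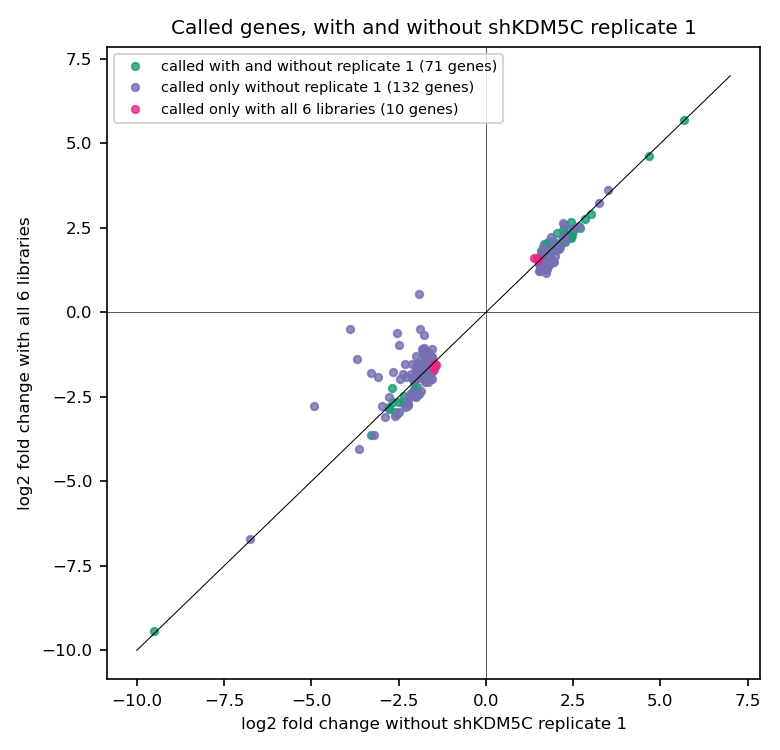
Log2 fold change of shKDM5C over shNC without replicate 1 (horizontal axis) and with all 6 libraries (vertical axis), 1 point per gene called in either analysis and tested in both, with the line of equal values. The 71 genes called both ways lie near the line, while some of the 132 genes called only without replicate 1 lie well off it.

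The 12 lower and 12 higher genes with the largest change among those called both ways and averaging 5 CPM or more in whichever group was higher are described first. In each of the 24, the 3 shNC and the 3 shKDM5C libraries did not overlap, which was also so for 16.1% (lower) and 15.6% (higher) of all genes tested. The promoters of the 2 lower and 2 higher genes that lead these lists are shown because their transcripts changed most. They are RefSeq sequences of GRCh38.p14, from 250 bases before to 50 after the start annotated in RefSeq. The annotation used for counting can place the start elsewhere. There SLC34A2 starts at 25655301 and ALPP at 232378534, so the SLC34A2 window and most of the ALPP window lie inside the counted gene. ALPP lies at chr2:232378501-232378800 on the plus strand, SLC22A31 at chr16:89201629-89201928 on the minus strand, SLC34A2 at chr4:25655601-25655900 on the plus strand and VCAM1 at chr1:100719492-100719791 on the plus strand. No letters are in capitals, since none of the 3 motifs searched (given further on) occurs in them.
ALPP: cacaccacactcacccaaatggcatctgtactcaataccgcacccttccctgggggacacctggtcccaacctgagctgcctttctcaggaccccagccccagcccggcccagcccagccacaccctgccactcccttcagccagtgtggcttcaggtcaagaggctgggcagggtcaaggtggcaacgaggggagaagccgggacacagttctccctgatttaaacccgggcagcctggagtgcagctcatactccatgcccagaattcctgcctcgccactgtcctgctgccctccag
SLC22A31: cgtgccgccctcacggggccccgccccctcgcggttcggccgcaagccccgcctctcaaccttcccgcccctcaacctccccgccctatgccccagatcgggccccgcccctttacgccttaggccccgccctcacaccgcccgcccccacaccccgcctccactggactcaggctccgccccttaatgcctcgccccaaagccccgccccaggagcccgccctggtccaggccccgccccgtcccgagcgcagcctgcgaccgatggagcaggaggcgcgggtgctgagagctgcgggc
SLC34A2: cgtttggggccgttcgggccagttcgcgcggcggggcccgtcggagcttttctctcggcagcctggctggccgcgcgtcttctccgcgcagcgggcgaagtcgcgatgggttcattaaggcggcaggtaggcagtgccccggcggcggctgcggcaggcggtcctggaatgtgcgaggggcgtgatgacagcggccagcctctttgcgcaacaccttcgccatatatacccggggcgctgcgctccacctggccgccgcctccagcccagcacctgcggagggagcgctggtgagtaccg
VCAM1: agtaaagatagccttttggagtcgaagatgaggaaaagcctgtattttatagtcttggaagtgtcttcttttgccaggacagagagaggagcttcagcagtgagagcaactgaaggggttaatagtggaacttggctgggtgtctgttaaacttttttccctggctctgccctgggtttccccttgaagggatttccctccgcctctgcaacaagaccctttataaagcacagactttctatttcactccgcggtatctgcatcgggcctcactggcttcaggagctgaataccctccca

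Among the lower genes were several that build contacts and the cytoskeleton of epithelia. GJA1, which encodes the gap junction protein connexin 43, had 29.6, 31.0 and 31.8 CPM in shNC and 4.32, 5.92 and 6.12 CPM in shKDM5C. Its log2 fold change was -2.49 ± 0.18 (adjusted p = 0.00762), and -2.35 ± 0.12 without replicate 1. CDH3, which encodes P-cadherin, had 36.7, 34.2 and 38.6 CPM in shNC and 8.57, 11.2 and 9.13 CPM in the knockdown. It fell by 1.92 on the log2 scale (adjusted p = 0.00762), and its fall without replicate 1 was 1.84. KRT7, a keratin of simple epithelia, had 116, 123 and 119 CPM in shNC and 16.0, 29.7 and 27.8 CPM in shKDM5C, so that replicate 1 was the lowest of the 3. The log2 fold change of KRT7 was -2.28 ± 0.23 (adjusted p = 0.00979), and -2.05 ± 0.07 without replicate 1. EPPK1, a plakin that binds keratin filaments, had 10.2 to 10.3 CPM in shNC and 1.73 to 3.41 CPM in shKDM5C, a log2 fold change of -1.97 and, without replicate 1, -1.76. CDH3 and KRT7 each lie beside an antisense gene that was called in the same direction without replicate 1, and because strand was not used in counting, reads of the pairs cannot be told apart.

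DKK1, a secreted inhibitor of Wnt signaling, had 28.2, 31.1 and 29.5 CPM in shNC and 6.63, 6.92 and 9.78 CPM in shKDM5C. Its log2 fold change was -1.93 ± 0.19 (adjusted p = 0.00829). Membrane proteins and receptors followed: MAL, a protein of apical membrane sorting, had 9.54, 7.16 and 8.30 CPM in shNC and 0.648, 1.68 and 1.53 CPM in the knockdown. HTR1D, a serotonin receptor, had 9.23 to 10.0 CPM in shNC and 3.24, 1.41 and 1.58 CPM in shKDM5C, and here replicate 1 was the highest of the 3. LYNX1, which modulates acetylcholine receptors, fell by 1.90 on the log2 scale from a mean of 11.7 ± 0.426 CPM (SD, n = 3). ALPP encodes placental alkaline phosphatase and shares near-identical sequence with ALPG, so its counts are uncertain. It had 4.16, 6.44 and 5.19 CPM in shNC and 0.144, 0.681 and 0.383 CPM in shKDM5C, the largest fall among the 12, with a log2 fold change of -3.63 ± 0.45 (adjusted p = 0.0167). SLC22A31, a member of the organic ion carriers, had 9.76, 6.49 and 7.73 CPM in shNC and 0.360, 1.15 and 1.48 CPM in shKDM5C. CRYBG2 fell by 2.86 and the long noncoding RNA LINC03061 by 1.92 on the log2 scale, both with an adjusted p of 0.00762. With all 6 libraries the log2 fold changes of MAL, HTR1D and SLC22A31 were -2.66, -2.24 and -2.96. Without replicate 1, those of ALPP, CRYBG2, HTR1D, SLC22A31 and MAL were -3.28, -2.77, -2.69, -2.60 and -2.37, and those of LINC03061, DKK1 and LYNX1 were -1.91, -1.83 and -1.69.

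The higher genes included carriers of the kidney and gut epithelium. SLC34A2, a sodium phosphate cotransporter, had 0.388, 0 and 0.311 CPM in shNC and 12.9, 12.5 and 11.9 CPM in shKDM5C. As raw counts these were 7, 0 and 6 read pairs in shNC against 179, 239 and 218. The 3 knockdown libraries lay close together and far above the control, and replicate 1 did not stand apart in this gene. The log2 fold change was 5.68 ± 0.53 (adjusted p = 0.00762), and 5.66 ± 0.33 without replicate 1. SLC34A2 had 8, 5 and 12 counts in the Dsh libraries, where KDM5C was also low, and 5, 0 and 7 in shYY1. In ACHN cells it had 4171 to 4816 counts in shNC and 4891 to 5151 in shKDM5C. SLC2A2, the glucose carrier GLUT2, had 3.49, 2.74 and 2.13 CPM in shNC and 18.1, 14.9 and 13.0 CPM in shKDM5C. It rose by 2.46 ± 0.24 on the log2 scale (adjusted p = 0.00829). SLC37A1, a carrier of sugar phosphates, rose by 2.11 ± 0.20 (adjusted p = 0.00762). SLC17A3, a urate and organic anion carrier of the proximal tubule called both ways outside the 24, had 8.26, 11.4 and 11.5 CPM in shNC and 38.0, 43.9 and 43.3 CPM in shKDM5C, a rise of 2.00 ± 0.18. Without replicate 1, SLC2A2, SLC37A1 and SLC17A3 rose by 2.33, 2.19 and 2.07.

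Other higher genes encode secreted or surface proteins of inflammation and mucosal defense. C3, the central complement component, had 187, 190.3 and 201 CPM in shNC and 579.8, 936 and 929.7 CPM in shKDM5C. It rose by 2.08 ± 0.20 on the log2 scale (adjusted p = 0.00762), and by 2.27 ± 0.04 without replicate 1. LCN2, the iron-binding lipocalin used as a marker of tubule injury, had 22.2, 23.7 and 22.3 CPM in shNC and 74.4, 125 and 119 CPM in shKDM5C. In both genes replicate 1 was the lowest knockdown library and still lay far above the control. VCAM1, an adhesion molecule for leukocytes, had 1.94, 2.57 and 1.97 CPM in shNC and 14.1, 17.7 and 17.3 CPM in the knockdown, a log2 fold change of 2.92 ± 0.20 (adjusted p = 0.00762). PIGR, which carries immunoglobulins across epithelia, had 1.5 to 1.92 CPM in shNC and 8.14 to 9.75 CPM in shKDM5C. MMP7, a matrix protease called both ways outside the 24, had 63.9 CPM in each shNC library and 215, 279 and 259 CPM in shKDM5C. It rose by 1.98 ± 0.13 on the log2 scale (adjusted p = 0.00762). The 6-library rises of LCN2 and PIGR were 2.23 and 2.42, and without replicate 1 the rises of VCAM1, PIGR, LCN2 and MMP7 were 3.01, 2.49, 2.43 and 2.08.

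RSPO3, a secreted activator of Wnt signaling, had 8.65, 8.56 and 10.6 CPM in shNC and 63.7, 46.0 and 39.9 CPM in shKDM5C, and FAT2, an atypical cadherin, had 8.87 to 9.43 CPM in shNC and 74.3, 50.6 and 47.8 CPM in shKDM5C. In both, replicate 1 was the highest library. Their log2 fold changes were 2.42 and 2.66, and 2.21 and 2.44 without replicate 1. COL15A1, a collagen of basement membranes, rose by 2.29 ± 0.32 (adjusted p = 0.0236), and PDK4, a kinase that restrains pyruvate oxidation, by 2.06 ± 0.21 (adjusted p = 0.00902). STUM was nearest to the limit, with 0.721 to 1.46 CPM in shNC, 3.24 to 6.86 CPM in shKDM5C and an adjusted p of 0.0498 for a log2 fold change of 2.20. Without replicate 1, COL15A1, STUM and PDK4 rose by 2.45, 2.45 and 1.98.

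**Figure D3:**
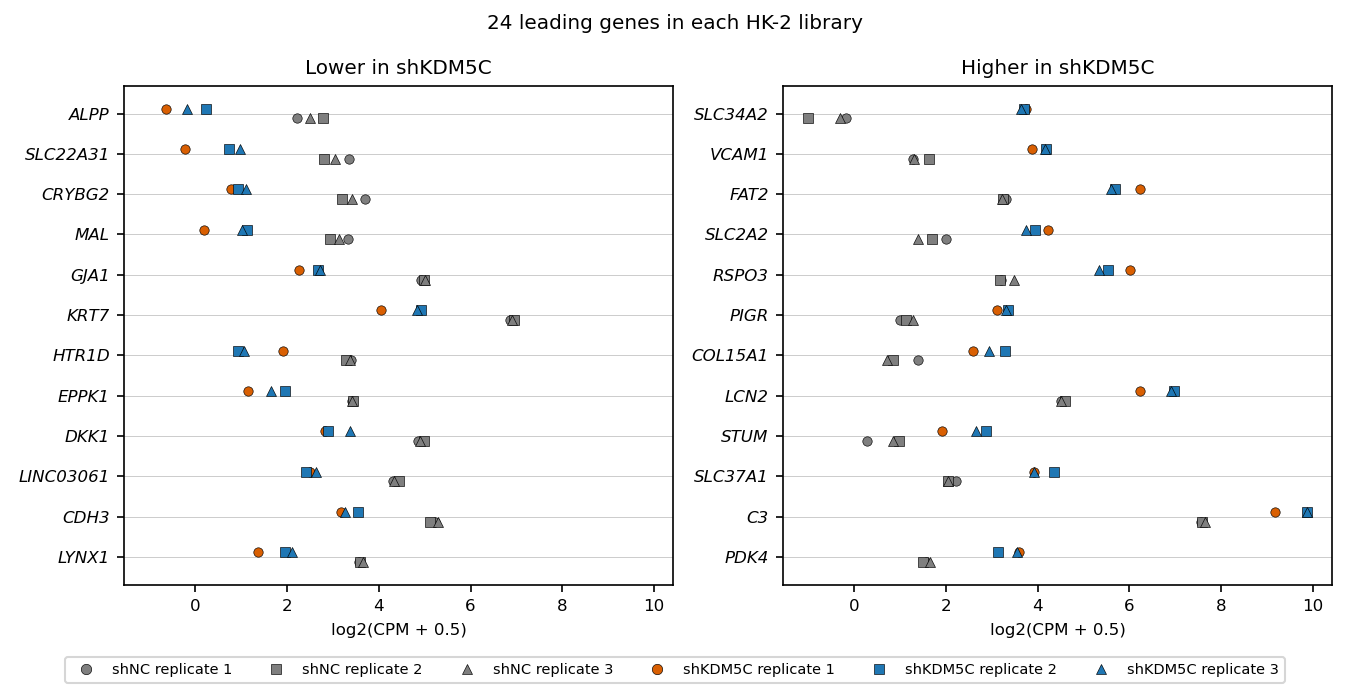
Expression of the 12 leading lower genes (left) and 12 leading higher genes (right) in each HK-2 library, as log2 of CPM plus 0.5 (horizontal axis), with gray symbols for shNC, orange for shKDM5C replicate 1 and blue for replicates 2 and 3. In all 24 genes the knockdown symbols stand clear of the control symbols, and the orange symbol lies beyond the blue ones in some genes and nearer to the control in others.

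A further 101 lower and 58 higher genes were called only without replicate 1, and 27 of these 159 had too few counts to test with all 6 libraries. The leading ones at 5 CPM or more fell into those that replicate 1 shared and those that it did not. The calcium-regulated membrane protein ANO5 had 9.51 to 12.4 CPM in shNC and 5.62, 3.09 and 2.62 CPM in shKDM5C, and the semaphorin SEMA7A 8.93 to 9.23 CPM against 1.08, 3.30 and 2.46 CPM, so replicate 1 was on the same side. Their adjusted p with all 6 libraries was 0.0673 and 0.0524. SLIT2, a guidance ligand, fell by 1.55 ± 0.13 on the log2 scale without replicate 1, and passed the test with all 6 libraries at a smaller fold (-1.40). The potassium channel subunit KCNMB4 and the growth factor receptor ERBB3 had log2 fold changes of -1.59 and -1.54 without replicate 1. PAX2, a transcription factor of the developing nephron, had 9.76, 8.06 and 11.5 CPM in shNC and 16.0, 28.3 and 36.1 CPM in shKDM5C. It rose by 1.72 ± 0.13 without replicate 1 (adjusted p = 5.09e-10), against an adjusted p of 0.0855 with all 6 libraries. STRA6, the receptor for retinol binding protein, had 8.51 to 11 CPM in shNC and 15.1, 34.8 and 32.7 CPM in shKDM5C, and TRABD2B, a Wnt-cleaving protease, 10.4 to 12.9 CPM and 19.8, 48.7 and 42.1 CPM.

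In 4 of the 12 genes named by this rule, replicate 1 lay within or beyond the control on the other side. SAA1, an acute phase protein nearly identical to SAA2, had 5.88, 7.16 and 7.11 CPM in shNC, 28.1 and 22.6 CPM in replicates 2 and 3, and 5.19 CPM in replicate 1. C1R, a complement protease, had 4.88 to 5.32 CPM in shNC, 15.9 and 18.7 CPM in replicates 2 and 3, and 3.67 CPM in replicate 1. HDHD3 had 2.27 to 2.70 CPM in shNC, 9.43 and 8.75 CPM, and 2.45 CPM in replicate 1. The pseudogene SPCS2P4 had 3.94 to 11 CPM in shNC, 1.15 and 2.79 CPM in replicates 2 and 3, and 29.0 CPM in replicate 1, so the sign of its log2 fold change turned from -1.92 to 0.53 with replicate 1. For these 4 genes the change rests on replicates 2 and 3 alone.

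In 28 gene lists, described here by counts of members past an adjusted p of 0.05 without replicate 1, the shares are read against 10.9% (lower) and 11.5% (higher) of all 16642 genes tested and a median log2 fold change of -0.0016. With all 6 libraries few members of any list passed, at most 4 in 1 direction, so the list counts rest on replicates 2 and 3. How replicate 1 stood is given for the main lists. Those counts are read against the 44.9% of all genes tested for which replicate 1 lay below every shNC library. It lay above every one for 41.8%. The values of replicate 1 also ran with GC content, and these shares do not take the GC content of list members into account. Its side of shNC is therefore a description and not independent support for a list. Log2 values of list members printed with an adjusted p are from all 6 libraries and the others from the analysis without replicate 1, unless stated. Members given only without replicate 1 did not pass with all 6 libraries, and replicate 1 lay beyond every shNC library in the same direction unless stated. More RNA of a gene per cell and a changed share of cells that express it cannot be told apart in these bulk libraries.

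Genes of the extracellular matrix moved most often downward. Of 34 tested members of the list of collagens, laminins and matrix, 19 were lower and 8 higher, and the median log2 fold change was -0.27. Replicate 1 lay below every shNC library in 18 of the 19. With all 6 libraries, 4 were lower and 1 higher, with a median of -0.55. Chains of the basement membrane collagen IV were among the lower members. COL4A4 had 8.10, 10.9 and 8.92 CPM in shNC and 3.03, 3.46 and 3.17 CPM in shKDM5C and fell by 1.53 ± 0.19 (adjusted p = 0.0172, 6 libraries). COL4A3 fell by 1.55 with all 6 libraries (adjusted p = 0.0453). The abundant chains COL4A1 and COL4A2 fell by 0.21 and 0.22 without replicate 1. COL8A1 had 97.8, 107 and 102 CPM in shNC and 43.4, 37.7 and 38.6 CPM in the knockdown, a fall of 1.36 ± 0.12 on the log2 scale (adjusted p = 0.00762). In the opposite direction, COL5A1 rose from 4.38, 5.09 and 4.36 CPM to 9.15, 13.9 and 13.7 CPM (log2 fold change 1.41, adjusted p = 0.0323), and the laminin chain LAMA1 by 0.47 without replicate 1. Of 17 tested proteases of the matrix and their inhibitors, 10 were lower and 2 higher without replicate 1, and replicate 1 lay below every shNC library in all 10. ADAMTS1 had 29.7, 28.3 and 24.8 CPM in shNC and 11.9, 11.9 and 12.7 CPM in shKDM5C (log2 fold change -1.18 ± 0.14, adjusted p = 0.0163). MMP7 was 1 of the 2 that rose.

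Inflammatory genes moved both ways, with more rising. Of 24 tested cytokine, chemokine and NF-kappaB pathway genes, 14 were higher and 6 lower without replicate 1 (median 0.30). Replicate 1 lay above every shNC library in 7 of the 14 and below in all 6 of the lower ones, and with all 6 libraries 3 rose and 0 fell (edgeR). CCL2, a chemokine for monocytes, had 5.82, 6.66 and 9.08 CPM in shNC and 14.7, 20.5 and 24.2 CPM in shKDM5C, a rise of 1.46 ± 0.25 (adjusted p = 0.0475). IL1B was low, at 0.111 to 0.728 CPM in shNC and 0.937 to 1.97 CPM in shKDM5C. The lower members included the secreted cytokines IL6, at 8.56 to 9.48 CPM in shNC and 1.87, 3.20 and 5.85 CPM in shKDM5C, and CXCL8, at 75.2 to 93.3 CPM against 51.4 to 56.7 CPM. Without replicate 1 they fell by 0.99 and 0.66 on the log2 scale. The receptor IL1R1, outside this list, was called higher both ways, with 2.38 to 4.88 CPM in shNC and 10.2 to 13.8 CPM in shKDM5C.

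Of 15 tested genes of antigen presentation by MHC class I, 9 were higher and 1 lower without replicate 1 (median 0.22), but replicate 1 lay above every shNC library in only 2 of the 9, and 0 passed in either direction with all 6 libraries (edgeR). B2M, the common light chain, had 303, 309 and 311 CPM in shNC, 412 and 377 CPM in replicates 2 and 3, and 213 CPM in replicate 1. The peptide trimming enzyme ERAP1 did not share this split, with 64.7, 66.7 and 70.4 CPM in shNC and 93.5, 88.0 and 90.2 CPM in shKDM5C. The immunoproteasome subunits PSMB9 and PSMB10 rose by 0.58 and 0.66 on the log2 scale without replicate 1, but replicate 1 had 15.1 CPM of PSMB9, within shNC, and 7.49 CPM of PSMB10, below it. With all 6 libraries B2M, PSMB9 and PSMB10 had log2 fold changes of 0.12, 0.38 and 0.29. Of 31 tested genes of the interferon response and DNA sensing, 7 were higher and 1 lower without replicate 1 (median 0.13), and replicate 1 lay above every shNC library in 6 of the 7. GBP2, an interferon-induced GTPase, had 4.38, 6.21 and 7.21 CPM in shNC and 18, 13.5 and 14.2 CPM in the knockdown, and passed with all 6 libraries (1.36 ± 0.23, adjusted p = 0.0457). IFI44L had 23.0 to 25.4 CPM in shNC and 111, 58.7 and 52.4 CPM in shKDM5C and missed narrowly (adjusted p = 0.0504). USP18 and IFI44 rose by 1.26 and 0.81 without replicate 1.

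Metabolic and stress lists held smaller changes. Of 23 tested genes of cholesterol synthesis and uptake, 12 were lower and 3 higher without replicate 1 (median -0.16), replicate 1 lay below every shNC library in 9 of the 12, and the counts were 9 and 3 when the GC and length trends were taken out. HMGCS1, an early enzyme of the pathway, had 177, 186 and 174 CPM in shNC and 129.6, 119.9 and 120.5 CPM in shKDM5C, a fall of 0.57 ± 0.05. FDFT1, the squalene synthase, fell by 0.49 and EBP by 0.37, while STARD4, a cholesterol carrier, rose by 0.46, all without replicate 1. The fatty acid elongase ELOVL6 was called lower both ways, with 18.6, 21.5 and 20.5 CPM in shNC and 6.99, 4.40 and 5.41 CPM in shKDM5C (log2 fold change -1.86 ± 0.20, adjusted p = 0.013), in a list of 24 lipid genes in which 7 were lower and 4 higher. CPT1A, ACSL5 and the lipid droplet protein PLIN2 rose by 0.56, 0.88 and 0.45 without replicate 1. Of 19 tested NRF2 targets and glutathione genes, 8 were higher and 0 lower (median 0.17). HMOX1, heme oxygenase, had 34.7, 37.2 and 39.3 CPM in shNC, 63.8 and 61.7 CPM in replicates 2 and 3, and 28.8 CPM in replicate 1. GCLM, of glutathione synthesis, was higher in each knockdown library, with 46.2 to 49.4 CPM in shNC and 63.4 to 92.7 CPM in shKDM5C. Ferritin FTH1 and glutathione reductase GSR rose by 0.40 and 0.35 without replicate 1, and replicate 1 lay above every shNC library in 5 of the 8. FTH1 had 1071 CPM in replicate 1 against 1527 to 1584 CPM in shNC, and with all 6 libraries FTH1 and HMOX1 had log2 fold changes of 0.15 and 0.48. Among hypoxia and glycolysis genes, 8 of 31 were higher and 6 lower without replicate 1, and replicate 1 lay beyond shNC in the same direction in 6 of the 8 and 5 of the 6. CA12, a carbonic anhydrase, had 5.04 to 7.68 CPM in shNC and 15.4 to 19.0 CPM in shKDM5C (1.54 ± 0.21 on the log2 scale, adjusted p = 0.0215). The glucose carrier SLC2A3, PFKFB3 and EGLN3 rose by 0.69, 0.36 and 0.50 without replicate 1, but PFKFB3 had 351 CPM in replicate 1 against 491 to 513 CPM in shNC, and 0.12 on the log2 scale with all 6 libraries.

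Of 15 tested proximal tubule markers, 6 were higher and 3 lower without replicate 1 (median 0.17). Besides PAX2, ALPL, the tissue-nonspecific alkaline phosphatase of the brush border, rose from 0.392 to 0.444 CPM in shNC to 1.66, 2.83 and 2.68 CPM in shKDM5C (2.51 ± 0.36, adjusted p = 0.0255), and GGT1 and DPP4, enzymes of the same membrane, by 0.74 and 0.59 without replicate 1. GGT1 had 177 CPM in replicate 1, below the 193 to 213 CPM of shNC, and a 6-library value of 0.49. The membrane protease MME had 17.1 to 17.7 CPM in shNC and 14.9, 10.0 and 8.14 CPM in shKDM5C, and the fructokinase KHK fell by 0.91. The summed level of the list was 1491 to 1512 CPM in shNC, 1817 and 1835 CPM in replicates 2 and 3, and 2345 CPM in replicate 1. Tubule injury markers split evenly, with 6 higher and 6 lower of 16: LCN2, VCAM1 and HAVCR1 were among the higher, and KRT7, KRT19 and SOX9 among the lower. KRT19 had 42.2 to 45.4 CPM in shNC and 16.5, 27.1 and 24.7 CPM in shKDM5C. Of 22 tested epithelial and mesenchymal markers, 8 were lower and 5 higher. CDH1, which encodes E-cadherin, had 0.882 to 2.01 CPM in shNC and 3.10 to 4.65 CPM in shKDM5C (1.70 ± 0.32 without replicate 1), in the opposite direction to CDH3. The splicing factor ESRP1, of epithelia, and the repressor SNAI2, of mesenchyme, both fell, by 2.05 and 1.54. Of 25 markers of other kidney cell types, 11 could be tested and 5 had no count in any library, while 2 were lower and 1 higher. The podocyte and endothelial protein PODXL had 10.9 to 12 CPM in shNC and 4.25 to 7.05 CPM in shKDM5C, the distal calcium binder CALB1 was below 1 CPM in every library, and the sodium channel subunit SCNN1A rose by 0.37 without replicate 1, with 43.2 CPM in replicate 1 against 45.0 to 50.3 CPM in shNC and a 6-library value of 0.22. The endothelial markers CDH5 and KDR were at 0, the leukocyte marker PTPRC had means of 0.125 CPM in shNC and 0 in shKDM5C, and the list summed to 74.8 to 82.3 CPM in shNC and 68.2 to 91.9 CPM in shKDM5C.

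Signaling lists again moved in both directions. Among 28 tested YAP and TGF-beta targets, 12 were higher and 9 lower without replicate 1. BMP2 had 10.2 to 12.6 CPM in shNC and 23.6 to 25.3 CPM in shKDM5C, a rise of 1.12 ± 0.15 with all 6 libraries (adjusted p = 0.0183). F3, tissue factor, had 73.0, 85.6 and 79.5 CPM in shNC and 30.6, 42.2 and 32.4 CPM in shKDM5C (-1.18 ± 0.16, adjusted p = 0.021). ID2 and ID3, inhibitors of basic helix-loop-helix factors, rose by 1.15 and 1.18 without replicate 1, but ID3 had 68.7 CPM in replicate 1 against 94.7 to 112 CPM in shNC, and a 6-library value of 0.79. Of 20 immediate early and AP-1 genes, 5 were higher and 3 lower. DUSP6, a phosphatase of the ERK kinases, had 19.9 to 20.9 CPM in shNC and 36.7 to 42.1 CPM in shKDM5C (0.97 ± 0.13, adjusted p = 0.0181), and the EGFR ligand AREG, called lower both ways outside this list, 42.6, 47.9 and 41.1 CPM in shNC and 8, 13.6 and 14.5 CPM in shKDM5C. FOSL1, EGR1 and DUSP1 fell by 0.68, 0.63 and 0.58 without replicate 1. Of 23 p53 targets, 6 were lower and 2 higher, with 4 lower when the GC and length trends were taken out. TP53I3 and BTG2 fell by 0.69 and 0.72, and GDF15 and SESN2 rose by 0.61 and 0.63, without replicate 1. GDF15 had 20.3 CPM in replicate 1, below the 55.5 to 63.2 CPM of shNC, and a log2 fold change of 0.19 with all 6 libraries (adjusted p = 0.853). Of 29 ATF4 targets and unfolded protein response genes, 7 were lower and 6 higher without replicate 1, and replicate 1 lay beyond shNC in the same direction in 6 of the 7 and 3 of the 6, with ATF3 lower by 0.71, DNAJB9 higher by 0.45 and NUPR1 higher by 1.29. NUPR1 had 0.432 CPM in replicate 1, below the 1.12 to 1.3 CPM of shNC, and a 6-library value of 0.84 (adjusted p = 0.51).

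Of 33 tested S phase genes, 8 were lower and 1 higher without replicate 1 (median -0.08), and replicate 1 lay below every shNC library in 7 of the 8. Of 33 G2 and M phase genes 1 was lower and 4 higher (median 0.05). RRM2, the ribonucleotide reductase subunit, rose by 0.56, while the initiation factor GINS2, the histone mRNA binding protein SLBP and cyclin E1, CCNE1, fell by 0.31, 0.30 and 0.46. CENPF, a kinetochore protein, had 669 to 685 CPM in shNC, 791 and 796 CPM in replicates 2 and 3, and 1984 CPM in replicate 1. CDC20 and NUF2 rose by 0.23 and 0.22, and cyclin A2, CCNA2, fell by 0.32, without replicate 1. Replicate 1 went the other way for CDC20, at 197 CPM against 224 to 238 CPM in shNC, and for CCNA2, at 138 CPM against 120.1 to 123 CPM, and the 6-library values were 0.088 and -0.14. The summed level of the G2 and M list was 5996 to 6147 CPM in shNC, 6339 and 6386 CPM in replicates 2 and 3, and 10589 CPM in replicate 1. The study discusses 6 genes (JAM3, KNTC1, SMC2, SMC4, LMNB1 and FOXM1), which it chose on libraries of this series. It named them as lower in the double knockdown of ACHN cells, not in the KDM5C knockdown alone. In HK-2 Dsh against shNC, their log2 fold changes were -1.37, -0.12, -0.57, -0.24, -0.57 and -0.51, in that order. In shKDM5C, SMC2 alone passed without replicate 1, at a log2 fold change of 0.13 ± 0.05 (adjusted p = 0.0412), and none with all 6 libraries (edgeR). Replicate 1 had 404 CPM of SMC2, against 168 to 190.4 CPM in the other 5 libraries. FOXM1, a transcription factor of mitotic genes, had 195 to 202 CPM in shNC and 195 to 207 CPM in shKDM5C. Of 33 tested genes of the apoptosis machinery, 9 were higher and 3 lower (median 0.07). BIRC3, an inhibitor of apoptosis induced by NF-kappaB, had 30.9, 33.4 and 34.1 CPM in shNC and 110.4, 75.4 and 81.4 CPM in shKDM5C, and the death ligand TNFSF10 52.1, 58.3 and 66.0 CPM in shNC and 128, 105 and 111 CPM. Both passed with all 6 libraries (1.44, adjusted p = 0.0162, and 0.96, adjusted p = 0.0261).

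Histone H3K4 enzymes, germline genes and neuronal genes repressed by REST are groups tied to the known roles of KDM5 enzymes. The list of 18 H3K4 demethylases and methyltransferases did not count KDM5C and also held KDM2A, which acts mainly on another lysine of histone H3. Of its members, 2 were lower and 1 higher without replicate 1. KMT2C rose by 0.22 and KDM1A and KDM2A fell by 0.15 each, but both were above every shNC library in replicate 1, with 6-library values of 0.020 and -0.074. Of 37 germline and meiosis genes, 13 could be tested and 13 had no count in any library, while 4 were higher and 1 lower without replicate 1. The 4 of 13 were a larger share than the 11.5% of all genes tested, and 0 passed with all 6 libraries (edgeR). SMC1B, the meiotic cohesin subunit, had 47.2, 48.2 and 47.4 CPM in shNC and 88.8, 60.6 and 62.9 CPM in shKDM5C (0.38 ± 0.07 without replicate 1). CPEB1 rose by 0.50 and TEX19 by 1.3, while MEIOB fell by 0.36. TEX19 had 0.793 CPM in replicate 1, below the 1.79 to 2.33 CPM of shNC, and MEIOB 34.6 CPM, above the 29.2 to 31.6 CPM of shNC, so replicate 1 went the other way for both. Their 6-library values were 0.85 and -0.16. Of 22 tested neuronal genes repressed by REST, 2 were lower and 0 higher without replicate 1 (edgeR). The potassium channel KCNH2 had 3.22 to 3.99 CPM in shNC and 0.383 to 0.681 CPM in shKDM5C. KCNH2 was called lower both ways. Its log2 fold change was -2.81 with all 6 libraries (adjusted p = 0.0138, edgeR) and -2.78 without replicate 1. The glutamate receptor subunit GRIN1, at 3.22 to 3.77 CPM and 1.3 to 1.58 CPM, did not pass with all 6 libraries (adjusted p = 0.0626, edgeR). None of the 5 tested clustered protocadherins passed (edgeR), with a median log2 fold change of -0.97 at a summed level of 65.9 to 76.7 CPM over the whole list. Among housekeeping lists, 6 of 34 cytosolic ribosomal proteins were lower and 1 higher, 4 of 32 nuclear respiratory chain genes were lower and 2 higher, and of 13 genes of the mitochondrial genome 2 were lower and 1 higher. For RPL37A, RPL30, RPS28, RPL38, NDUFA1, SDHC, COX6C, SDHB, MT-ND2, MT-ND3 and MT-ND4L, all past the test without replicate 1, the log2 fold changes lay between -0.40 and 0.28. Replicate 1 lay within shNC for RPL37A and RPL38 and above it for MT-ND3 and MT-ND4L, against the direction of the other replicates, and with all 6 libraries the 11 values lay between -0.48 and 0.67 and none passed (edgeR).

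**Figure D4:**
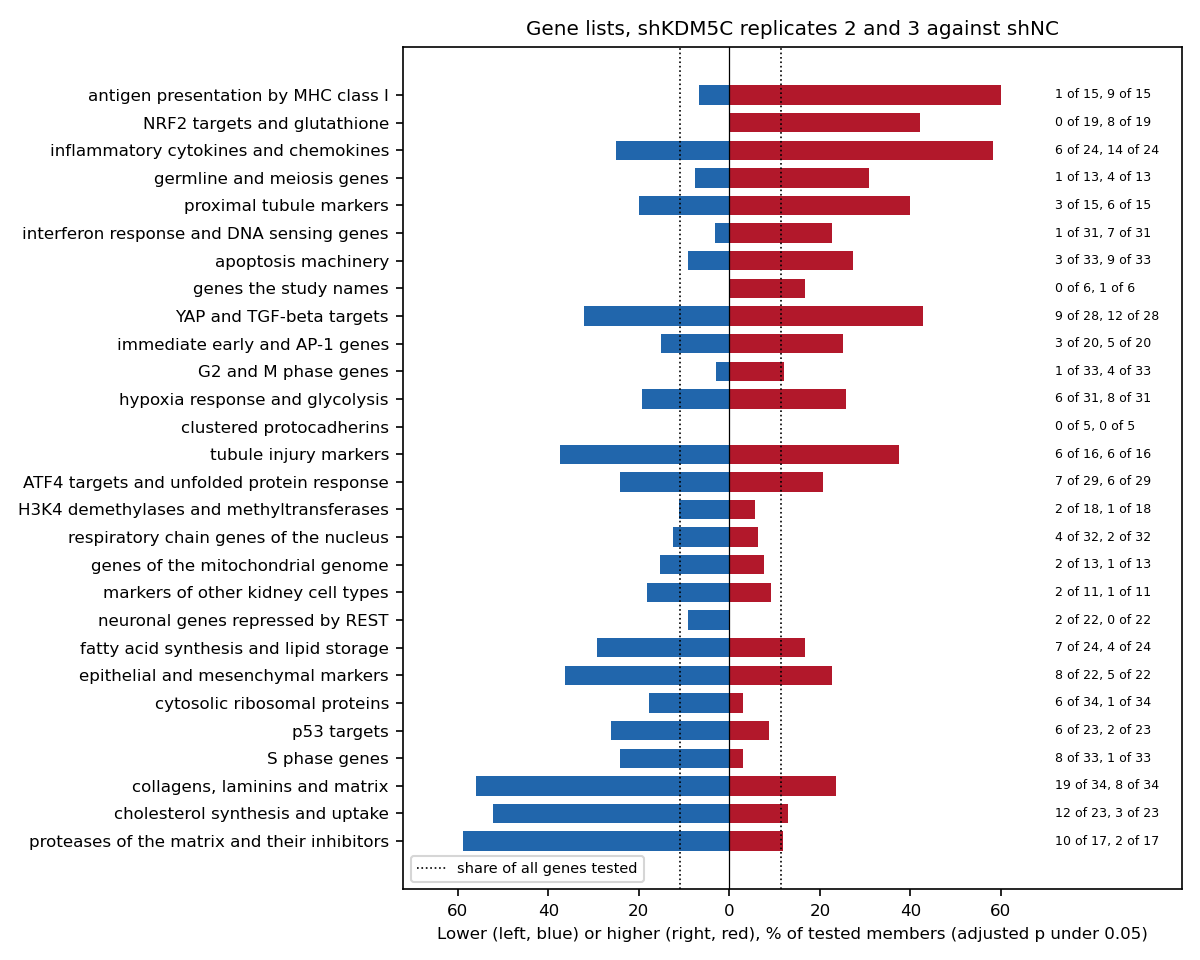
Share of the tested members of each of 28 lists that were lower (left, blue) or higher (right, red) in shKDM5C replicates 2 and 3 than in shNC at an adjusted p under 0.05, with the numbers at the right (lower, then higher) and the shares of all genes tested as dotted lines. Matrix proteases, cholesterol genes and matrix genes reach furthest to the left, and MHC class I and inflammatory genes furthest to the right.

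KDM5C knockdown in ACHN cells, a renal cancer line, lowered KDM5C less, and the sources do not say whether the hairpin was the same. The log2 fold change of KDM5C was -0.73 ± 0.05 there. The difference between the lines was -1.02 (adjusted p = 0.0203, edgeR interaction term, 12 libraries) and -0.79 without HK-2 replicate 1 (adjusted p = 4.31e-11). In ACHN, 27.7% of genes tested were lower and 28.9% higher at an adjusted p under 0.05. Of the 37 genes called lower both ways in HK-2, 32 could be tested in ACHN, and 17 were lower and 11 higher there. Of the 34 called higher, 17 could be tested in ACHN, and 4 were higher and 6 lower. With the fold threshold added, 10 of the lower genes were called lower in ACHN and 0 of the higher genes higher (edgeR, against 4 without the threshold), beside 2.68% and 0.667% of all genes tested there. The medians were -1.92 in HK-2 and -0.53 in ACHN for the lower genes, and 2.07 and -0.10 for the higher ones. These genes were selected on the HK-2 values that enter each difference, so a smaller value in ACHN is partly set by the selection. The difference of the effects passed with and without HK-2 replicate 1 for 19 of the 32 lower and all 17 higher genes tested in ACHN, each with the sign of the HK-2 effect. Over all genes, it passed in the negative direction for 5.74% and the positive for 6.18% with all libraries, and 18.6% and 15.4% without HK-2 replicate 1.

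Several genes moved in opposite directions in the 2 lines, each past the test in both. KRT7 had a log2 fold change of -2.28 in HK-2 and 1.29 ± 0.11 in ACHN, DKK1 -1.93 and 1.48 ± 0.09, GJA1 -2.49 and 0.86 ± 0.04, HTR1D -2.24 and 0.79 ± 0.11, and LINC03061 -1.92 and 1.25 ± 0.16. Among the higher genes, FAT2 was lower in ACHN (-0.69 ± 0.17) and so was PDK4 (-1.03 ± 0.31). C3 rose in both lines, by 2.08 and by 1.25 ± 0.06. MAL, ALPP, SLC22A31 and EPPK1 fell in both, with ACHN values of -2.04, -2.54, -1.86 and -1.65, and for these 4 genes the difference between the lines did not pass with all 12 libraries. CDH3, VCAM1, SLC2A2, RSPO3, PIGR, COL15A1 and STUM had too few counts in ACHN to test there.

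**Figure D5:**
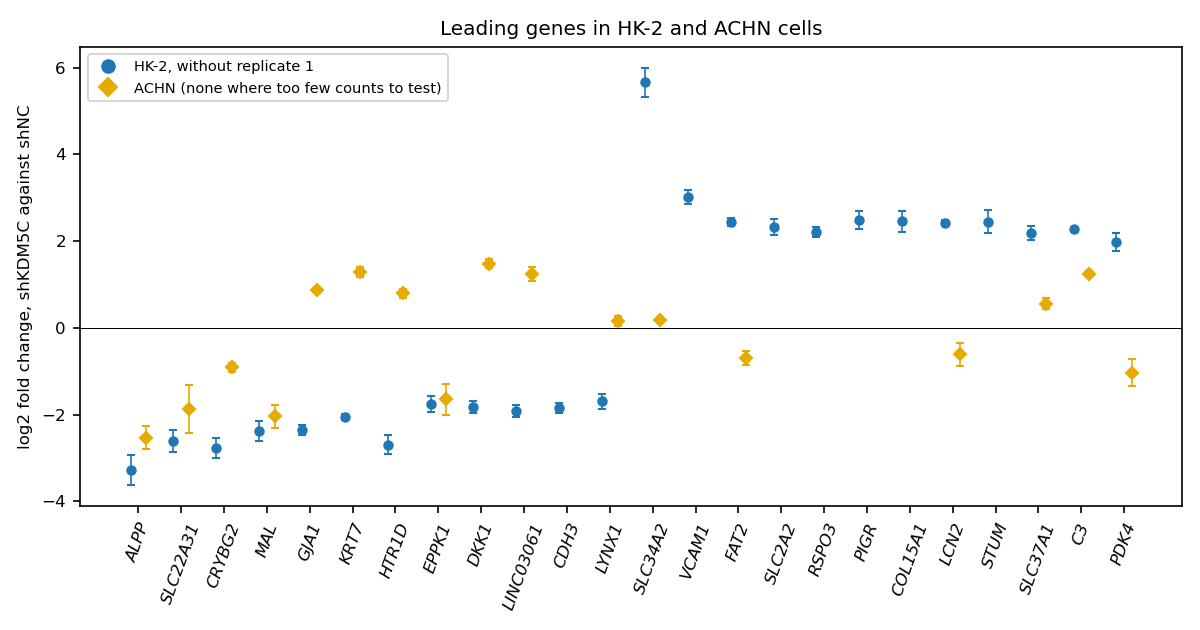
Log2 fold change of shKDM5C over shNC in HK-2 cells without replicate 1 (blue) and in ACHN cells (yellow diamonds) for the 24 leading genes, with bars of 1 SE. GJA1, KRT7, HTR1D, DKK1 and LINC03061 lie below 0 in HK-2 and above 0 in ACHN, and genes with no diamond had too few counts in ACHN.

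In the HK-2 Dsh libraries, 24.3% of genes tested were lower and 25.5% higher than in shNC at an adjusted p under 0.05. They were compared with the same shNC libraries, so the Dsh values are set beside those of shKDM5C without a test of likeness. KDM5C was -1.49 in Dsh. Medians over the genes called both ways were -1.25 in Dsh for the lower genes and 0.63 for the higher ones. LCN2 and C3 had log2 fold changes of 3.19 and 2.80 in Dsh, COL15A1 2.77 and VCAM1 1.55. The values of FAT2 and RSPO3 were 0.36 and 0.63 in Dsh. STUM and PAX2, higher in shKDM5C, were lower in Dsh, at -3.23 and -2.41, and MMP7 was -0.48. Among the lower genes, GJA1, CDH3, CRYBG2 and LINC03061 had values of -2.16, -2.08, -2.02 and -1.98 in Dsh, and KRT7 and MAL -1.06 and -1.13.

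Genes called without replicate 1 included neighbors that changed in the same direction. How often close neighbors share a direction over all genes tested was not counted. The start of DKK1 lies 168 bases from that of the antisense gene PRKG1-AS1, and both were lower, by 1.83 and 1.81 on the log2 scale without replicate 1. EPB41L4A and the divergent EPB41L4A-DT, 267 bases apart, fell by 1.72 and 3.82, and OLR1 and TMEM52B, 1596 bases apart, rose by 1.57 and 1.68. SLC37A1 and RSPH1, whose starts are 346 bases apart on opposite strands, had log2 fold changes of 2.19 and 3.25, but RSPH1 had at most 0.838 CPM. Because strand was not used in counting, reads of overlapping pairs cannot be told apart. The X chromosome, which carries KDM5C, held 7 of the 230 genes called without replicate 1, 3.04% against 3.43% of all genes tested. A snRNA gene was chosen after its values were seen: RNU6-1, a copy of the U6 spliceosomal RNA at chr15:67839939-67840045, had 83, 82 and 105 counts in HK-2 shNC and 0 in each shKDM5C library. With a floor of 3 counts per library it was at least 29.2-fold lower. It had 19, 19 and 21 counts in ACHN shNC and 0 in each ACHN shKDM5C library, and 3, 0 and 0 counts in HK-2 shYY1 and 2, 1 and 1 in HK-2 Dsh, so counts were present in the control lines of both cell types and nearly absent from every knockdown line looked at. U6 copies are near identical, so the assignment to 1 gene is uncertain.

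Promoters of the called genes were searched on both strands for 3 motifs: CACGTG (an E-box), CCATNTT (the core bound by YY1) and TTTCCCGC (bound by E2F factors). Of 27305 promoters in the RefSeq table, 7.43%, 15.9% and 1.66% held them. Of the 11451 promoters of genes tested without replicate 1 the shares were 10.1%, 15.2% and 2.52%. Among genes called lower without replicate 1, 85 had a promoter in the table, and 6, 7 and 0 held the 3 motifs, that is 7.06%, 8.24% and 0%. Among 60 promoters of higher genes, 6, 6 and 0 held them. These counts are a description of letters in a window of 300 bases, not of binding.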

How the data were processed

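RNA-seq libraries of HK-2 cells were prepared by the authors with the NEBNext Ultra kit and sequenced as paired ends. Per the labels and methods, the authors aligned reads to hg38 with HISAT2 2.0.5 and summarised read pairs over genes with featureCounts (1.5.0-p3 in the notes, 2.0.1 in the file headers) on Ensembl release 84, without strand. The deposited values are raw counts, 1 table per library. The study used DESeq2.

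The test was the quasi-likelihood F test of edgeR 4.0.16 (R 4.3.3, scaling by TMM, low counts filtered by filterByExpr, Benjamini-Hochberg adjustment over all genes tested), with 3 against 3 libraries and without shKDM5C replicate 1 (2 against 3). Calls needed an adjusted p below 0.05 and a log2 fold change of 1.5 or more in size. Standard errors come from the F statistic. CPM used TMM factors of the 6 libraries. Differences between cell lines were an interaction term over 12 libraries. Alternatives used DESeq2 1.42.0, limma 3.58.1 (voom with quality weights), other scalings and filters, a replicate block and a spline trend with GC content and length (5 degrees of freedom each). Floors of 3 counts cover counting error only. A permutation of 3 against 3 libraries cannot go below 0.1.

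Named genes were KDM5C, KDM5A, KDM5B and YY1, 6 genes of the study, the 12 lower and 12 higher leading genes called both ways at 5 CPM or more, 6 and 6 called only without replicate 1, and up to 4 members per list that passed without replicate 1. Other genes were named after their values were seen. The members, lists and rules were chosen with earlier results of these data known. Some genes that the rule names are not reported here. Y-linked genes and XIST were kept out of the named genes. Of 60675 genes, 4117 without a symbol held 0.239% of the counts. ACHN shYY1 and ACHN double knockdown libraries were not used here. Same-numbered libraries shared only a number. Neither any pair of shNC libraries nor shKDM5C replicates 2 and 3 agreed within sampling noise (chi-square per degree of freedom 3.20 to 3.75). Pairs with shKDM5C replicate 1 were not compared in this way.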

Additional observations from a re-analysis of the deposited data

Results flagged for a closer look

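For the genes below, the effect of shKDM5C differed between HK-2 and ACHN cells at an adjusted p under 0.05 (edgeR interaction term), both with all 12 libraries and without HK-2 shKDM5C replicate 1, among genes tested in each line. Values are log2 differences, HK-2 minus ACHN, with all 12 libraries.

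A negative difference means a lower log2 fold change in HK-2 than in ACHN, not a weaker effect. Negative differences were found for KDM5C (-1.02) and for 7 of the leading lower genes. These were CRYBG2 (-1.96), GJA1 (-3.36), KRT7 (-3.57), HTR1D (-3.07), DKK1 (-3.42), LINC03061 (-3.18) and LYNX1 (-2.06). ANO5 (-1.42), SEMA7A (-1.15) and ERBB3 (-1.64), called in HK-2 without replicate 1 only, also differed. FOXM1 differed by -0.37, with no change past the test in HK-2 and a higher level in ACHN shKDM5C.

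Positive differences were found for SLC34A2 (5.48), FAT2 (3.34), LCN2 (2.83), SLC37A1 (1.54), C3 (0.82) and PDK4 (3.08). HDHD3 (1.79), C1R (2.26) and PAX2 (3.10), called in HK-2 without replicate 1 only, also differed. KDM5C was lowered less in ACHN, so the lines differ in the depth of the knockdown as well as in cell type. They may also differ in the KDM5C hairpin, which the sources do not name. Effects of depth, cell type and hairpin cannot be told apart.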

How the results depend on the processing

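Without shKDM5C replicate 1, the counts of called genes (138 lower, 92 higher) stayed within 1.5 times under each alternative run, between 110 and 137 lower and 69 and 101 higher when 1 more library was left out. The 1808 lower and 1910 higher at any fold ranged from 1115 to 1749 and from 1190 to 1838 when 1 more library was left out, the lowest without shKDM5C replicate 3. With all 6 libraries the counts (43 and 38) moved more: 95 and 75 with DESeq2, 107 and 80 with all 4 HK-2 groups in 1 fit, 70 and 63 with the GC and length trends taken out, 159 and 93 with limma voom and quality weights, and 145 and 95 at an unadjusted p under 0.05. Without a filter on low counts 70 were lower. Leaving out 1 library gave 0 to 138 lower and 0 to 92 higher. At any fold (106 and 108) the counts were 380 and 427 with DESeq2, 198 and 207 without a filter, 592 and 748 with 4 groups, 429 and 580 with the trends taken out, 1719 and 1798 with voom, and 0 to 1808 and 0 to 1910 with 1 library left out. The cause was not tested.

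Libraries of the same number were not paired by the labels. With the replicate number as a block, 0 genes were called with all 6 libraries in either direction and 0 passed at any fold (edgeR; 222 and 288 with block and trends together), and 147 and 103 were called without replicate 1. The correlations of same-numbered deviations were -0.09, -0.14 and 0.06. KDM5C was -1.79 under the block (adjusted p = 0.0819, edgeR) and -1.88 to -1.51 with 1 library left out. The 71 genes called both ways kept their sign under every alternative run, and 66 were called with all 6 libraries and the trends taken out, 68 without replicate 1 and the trends taken out.

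The number of genes whose effect differed between the cell lines (2140) was 957 with a block, and 1267 to 6289 with 1 library left out, the highest without HK-2 shKDM5C replicate 1. Signs turned for genes near 0. With 1 library left out, KDM5A lay between -0.073 and 0.45, KDM5B between -0.059 and 0.45, KNTC1 between -0.033 and 0.34, LMNB1 between -0.13 and 0.061 and JAM3 between -0.096 and 0.011. For JAM3 the sign turned without shNC replicate 3, and for the others without shKDM5C replicate 1. With the trends taken out, KNTC1 was -0.057 and LMNB1 0.028, and -0.055 and 0.025 with the replicate block added. FOXM1 was -0.056 with total counts as library size. In an alternative chosen after seeing the data, replicate 1 was put back for genes named without it, which turned SPCS2P4 to 0.53, KDM1A to 0.020, MT-ND3 to 0.057 and MT-ND4L to 0.51.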
